A study of Homo sapiens with 3 samples.

Results

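Keratins, claudins, E-cadherin and the transcription factor GRHL2 were examined in 22Rv1, a human prostate cancer cell line, after transfection with either of 2 transcripts of MLPH. The genes were named as a list of 10: the keratins KRT7, KRT8, KRT18 and KRT19, the claudins CLDN1, CLDN3, CLDN4 and CLDN7, and CDH1 and GRHL2. A row of the count table carried the symbol of 9 of them, and all 9 passed the filter on low counts, out of 8840 genes that did. KRT18 was not analysed here. The list was drawn up after the ratios of KRT7, CLDN1, CDH1 and GRHL2 between these libraries had been seen, so the values below are a description of these genes.

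The cells had received 20 μg of a plasmid with MLPH transcript V1, the same amount with transcript V4, or the empty vector, and were taken at 48 h. MLPH encodes melanophilin, which links Rab27a on vesicles to myosin Va. All groups were transfected cells of the same line, with 1 sample in each of the 3 groups, and only the V1 and V4 libraries were compared, because the remaining column names no transfection. Total counts were 9253399 (V1) and 9609381 (V4), and 12757 and 12401 symbols had a count. MLPH itself had 7219 counts with V1 and 7773 with V4, which does not separate its transcripts. With 1 library per group no difference has a replicate check, no test across samples was possible, and each ratio compares these libraries, not the conditions. Every interval is a 95% interval of counting error alone, exact Poisson for a level and exact conditional binomial for a ratio.

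Glandular epithelia, such as the luminal layer of the prostate, build their cytoskeleton from keratin pairs, in which a type II keratin (KRT7 or KRT8) joins a type I keratin (KRT18 or KRT19). Neighbouring cells are sealed by tight junctions, whose strands are made of claudins, and held together by adherens junctions, whose core is E-cadherin. GRHL2 is a transcription factor that activates CDH1 and claudin genes in epithelia, and repressors such as SNAI1 and the ZEB proteins act on CDH1 in the opposite direction.

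The sequence before the start of 3 claudin genes is shown first, because CLDN1 differed far more between the libraries than CLDN3 and CLDN4 did. RefSeq promoter windows on GRCh38.p14 were found for 5 of the 10 genes. Each line gives the 250 bases before the annotated start, 5′ to 3′ on the gene's strand. Capitals mark matches, on either strand, to TATAA (the core of a TATA box), CAGGTG (an E-box bound by SNAI and ZEB repressors), GGGCGG (a GC box), TGANTCA (AP-1) or AACNGGTT (GRHL factors). No 2 matches overlap in these windows. The windows are chr3:190322447-190322696 on the minus strand for CLDN1, chr7:73770271-73770520 on the minus strand for CLDN3, and chr7:73830746-73830995 on the plus strand for CLDN4.
CLDN1: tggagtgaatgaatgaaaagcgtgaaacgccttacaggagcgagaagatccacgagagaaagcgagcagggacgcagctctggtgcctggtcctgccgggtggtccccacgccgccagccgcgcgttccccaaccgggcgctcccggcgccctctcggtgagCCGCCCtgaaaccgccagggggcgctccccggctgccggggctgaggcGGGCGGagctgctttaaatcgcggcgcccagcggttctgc
CLDN3: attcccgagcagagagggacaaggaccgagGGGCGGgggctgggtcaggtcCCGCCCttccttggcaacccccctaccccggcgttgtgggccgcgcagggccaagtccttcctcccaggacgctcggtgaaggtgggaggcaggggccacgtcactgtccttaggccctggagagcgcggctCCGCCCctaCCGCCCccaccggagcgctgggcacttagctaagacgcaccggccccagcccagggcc
CLDN4: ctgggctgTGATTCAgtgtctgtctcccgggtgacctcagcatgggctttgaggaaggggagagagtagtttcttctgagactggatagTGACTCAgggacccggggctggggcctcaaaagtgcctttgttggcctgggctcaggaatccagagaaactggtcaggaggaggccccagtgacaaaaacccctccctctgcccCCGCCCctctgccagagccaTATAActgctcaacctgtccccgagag

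The CLDN1 window held 2 GC boxes, first bases at -88 and -40 from the start, and no match to the other 4 motifs. The CLDN3 window held 4 GC boxes and nothing else. CLDN4 differed from both in having a TATA box core at -27, AP-1 matches at -242 and -161, and 1 GC box. CpG dinucleotides numbered 28 in the CLDN1 window, 19 in that of CLDN3 and 4 in that of CLDN4, and GC content was 68.8%, 71.6% and 58.8%, against a median of 58% over all windows. CLDN7 had 2 annotated starts. The window of the first held a TATAA match, and that of the second held 4 E-boxes and a GC box. The KRT8 window held none of the 5 motifs. Of 35114 windows of this length in the table, 42.6% held GGGCGG, 18.9% TATAA, 17.5% CAGGTG, 6.57% TGANTCA and 1.49% AACNGGTT. A match is a run of letters and not a shown binding site.

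Among the keratins, KRT7 was far lower in the V4 library, while KRT8 and KRT19 were modestly lower. KRT7, a type II keratin typical of glandular and ductal epithelium, had 306 counts in the V1 library (33.1 CPM, the unit of counts scaled to the library total, interval 29.5 to 37.0). In the V4 library it had 32 counts (3.33 CPM, interval 2.28 to 4.70). The intervals of the levels lie far apart, and KRT7 was 9.69-fold lower with V4 (interval 6.72 to 14.4).

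KRT8, the type II keratin of nearly all simple epithelia, had 2085 counts (225 CPM) with V1 and 1636 (170 CPM) with V4. It was 1.29-fold lower with V4 (interval 1.21 to 1.38). KRT19, the smallest type I keratin, had 3072 counts (332 CPM) and 2517 (262 CPM), 1.24-fold lower with V4 (interval 1.17 to 1.30). Both were thus lower by a similar, small fold, beyond counting error but under the 1.5-fold that was set for calling a gene. Pseudogenes named for KRT8 number 50 in GENCODE v29, and those for KRT19 number 5. None has a row among the genes used, and how reads that match both were counted is not stated in the labels. KRT7 has an antisense gene named for it, and without a stated strand setting reads from both cannot be told apart.

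The shares of KRT7 and KRT19 in the keratin counts differed between the libraries. Shares of counts, which also depend on transcript length, were taken over the keratin genes with a row, so KRT18 is outside the total. KRT7 held 4.30% (exact binomial interval 3.84 to 4.80) with V1 and 0.599% (0.410 to 0.844) with V4. KRT19 held 43.2% (42.0 to 44.3) and 47.1% (45.8 to 48.5), intervals that do not meet. Shares sum to a fixed total, so part of the difference for KRT19 follows from the lower share of KRT7. KRT8 held 29.3% (28.3 to 30.4) and 30.6% (29.4 to 31.9), which overlap, so KRT19 and KRT8 made up most of the total in both libraries. KRT75, named after its values were seen, held 5.82% and 5.78%, above KRT7 in each. Per kilobase of transcript, KRT7 stood at 20.4% of the level of KRT8 with V1 (interval 18.0 to 23.0) and at 2.72% with V4 (1.85 to 3.85). The level of KRT19 per kilobase was 258% of that of KRT8 with V1 (244 to 273) and 270% with V4 (253 to 287), intervals that overlap.

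**Figure D1:**
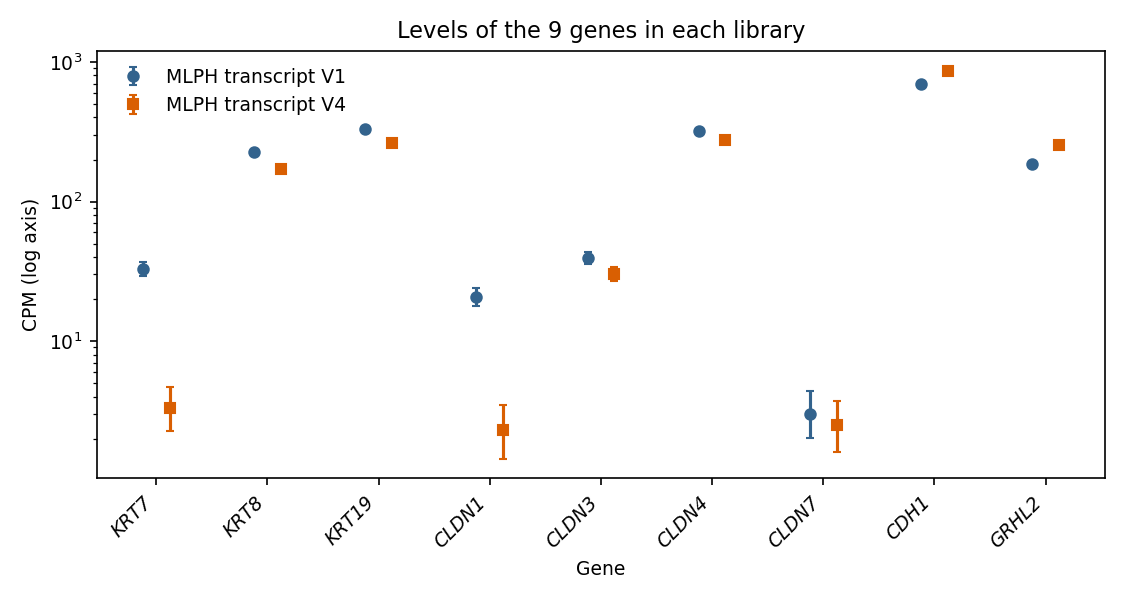
Level of each of the 9 genes in CPM on a log axis, as circles for the transcript V1 library and squares for the transcript V4 library, with exact 95% Poisson intervals of counting error. KRT7 and CLDN1 lie about a decade apart between the libraries, at 33.1 against 3.33 and 20.7 against 2.29. The levels of each of the other 7 genes differ by less than 1.5-fold.

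The claudins showed the same division, with CLDN1 far lower in the V4 library and CLDN3 and CLDN4 modestly lower. CLDN7 did not differ beyond counting error. CLDN1, a barrier-forming claudin of tight junctions, had 192 counts in the V1 library (20.7 CPM, interval 17.9 to 23.9). It had 22 counts in the V4 library (2.29 CPM, interval 1.43 to 3.47). The level intervals do not meet, and CLDN1 was 8.85-fold lower with V4 (interval 5.68 to 14.4).

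CLDN4, the claudin with the most counts, had 2974 counts (321 CPM) with V1 and 2648 (276 CPM) with V4, 1.14-fold lower (interval 1.08 to 1.20). CLDN3, its neighbour on chromosome 7 and like it a receptor for a clostridial enterotoxin, had 364 counts (39.3 CPM) and 293 (30.5 CPM), 1.26-fold lower with V4 (interval 1.08 to 1.47). CLDN7 was scarce, with 28 counts (3.03 CPM) and 24 (2.50 CPM). Its ratio of 0.846 had an interval from 0.469 to 1.51, so a difference of the size seen for CLDN3 was not detectable at this depth, while one of the size seen for CLDN1 lies outside that interval.

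Of the counts of claudin genes with a row, CLDN4 made up 78.8% with V1 (interval 77.5 to 80.1) and 84.2% with V4 (82.8 to 85.4). The share of CLDN1 was 5.09% (4.41 to 5.84) with V1 and 0.699% (0.439 to 1.06) with V4. As these shares also sum to a fixed total, part of the difference for CLDN4 follows from that of CLDN1. The share of CLDN3 was 9.65% (8.72 to 10.6) and 9.31% (8.32 to 10.4), which overlap. Per kilobase, CLDN1 stood at 7.72% of CLDN4 with V1 (6.64 to 8.94) and at 0.994% with V4 (0.622 to 1.51).

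CDH1 and GRHL2 lay on the other side. CDH1, which encodes E-cadherin and had the most counts of the 9 genes, had 6389 counts (690 CPM) with V1 and 8211 (854 CPM) with V4. Its ratio of V4 over V1 was 1.27 (interval 1.23 to 1.31). GRHL2 had 1706 counts (184 CPM) with V1 and 2444 (254 CPM) with V4, a ratio of 1.41 (interval 1.33 to 1.5). Both were higher with V4 beyond counting error and under 1.5-fold. Per kilobase, GRHL2 stood at 24.9% of CDH1 with V1 (interval 23.6 to 26.3) and at 27.8% with V4 (26.5 to 29.1).

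**Figure D2:**
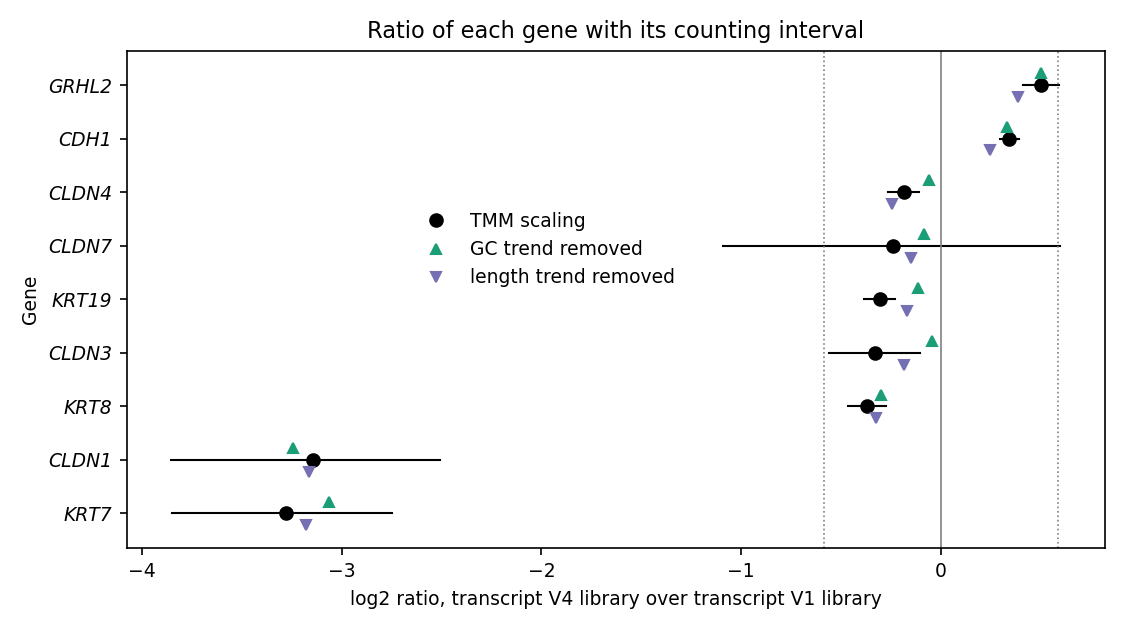
Log2 ratio of the V4 over the V1 library for each of the 9 genes. Black points are TMM-scaled ratios without a prior count with their 95% counting intervals, triangles the same ratio with a trend on GC content (up) or transcript length (down) removed, and dotted lines 1.5-fold. KRT7 and CLDN1 lie near -3, and the interval of CLDN7 includes 0.

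Called genes were those with a ratio of at least 1.5-fold, after adding a prior count of 2, and an interval that excluded 1. Of the 9 genes, 2 were lower in the V4 library by this rule (KRT7 and CLDN1), 0 were higher and 7 were neither. Over all 8840 kept genes, 628 (7.10%) were called lower and 487 (5.51%) higher. Since the genes were chosen on this comparison, nothing is read from the difference between these shares. The median log2 ratio of the 9 genes was -0.31, within a range from -3.20 to 0.50, beside -0.00 over all kept genes. The interval excluded 1 for 8 of the 9 genes, all but CLDN7.

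KRT7 and CLDN1 lay at the edge of the whole table: 0.724% of kept genes had a log2 ratio below that of KRT7 and 0.803% one below that of CLDN1. GRHL2 had 89.9% of genes below it and CDH1 82.5%. KRT8, KRT19 and CLDN3 lay between 17.1% and 20.7%, CLDN7 at 26.6% and CLDN4 at 30.4%. In how deeply each gene was read (mean CPM, not per length), KRT7 had 51.6% of kept genes below it and CLDN1 43.6%. CLDN7 had 18.0% below it.

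**Figure D3:**
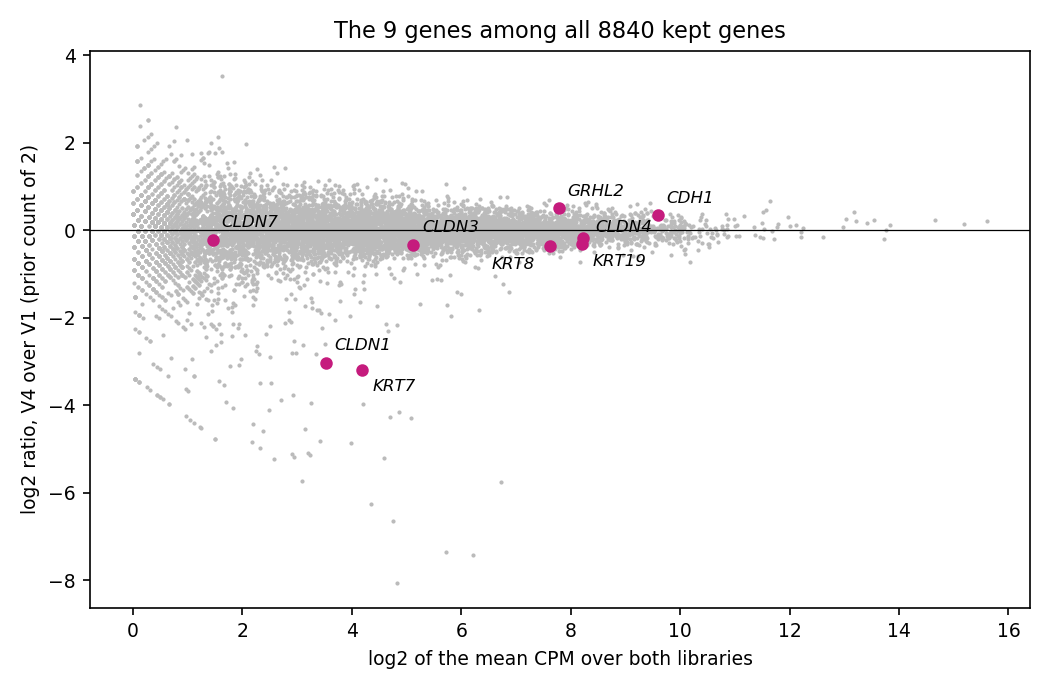
Log2 ratio of V4 over V1 (prior count of 2) against the log2 mean CPM over both libraries for 8840 kept genes (grey) and the 9 genes (coloured, named). KRT7 and CLDN1 lie below the body of genes at their level, at -3.20 and -3.03, and the others lie within or at its edge.

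Ordered by level per kilobase of the longest protein-coding transcript, the V1 library ran KRT19 (239 CPM per kilobase), CDH1 (141), KRT8 (92.5), CLDN4 (77.2), GRHL2 (35.2), CLDN3 (30.9), KRT7 (18.9), CLDN1 (5.96) and CLDN7 (1.57). Each neighbouring pair in that order differed beyond counting error. The V4 library kept the order of the first 7, from KRT19 (188) and CDH1 (175) down to KRT7 (1.90). CLDN7 (1.30) there lay above CLDN1 (0.658). With V4, KRT8 and CLDN4 did not differ beyond counting error (ratio 1.06, interval 0.992 to 1.12), nor did KRT7 and CLDN7 (ratio 1.46, interval 0.834 to 2.59). These levels also depend on which transcript the cells make, which gene counts do not show.

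The genes differ in base composition, and some of the smaller ratios moved when a trend on it was removed. Transcript GC content was 41.5% for CLDN1, 48.6% for CDH1, 49.8% for GRHL2, 53.4% for KRT8 and 57.5% for CLDN4. It was 59.6% for CLDN7, 61.8% for KRT19, 62.9% for KRT7 and 69.2% for CLDN3. CLDN1 lies at the lower end of this range and KRT7 toward the upper end. With a trend of the log2 ratio on GC content removed over all genes, CLDN3 moved from -0.33 to -0.04, KRT19 from -0.31 to -0.11 and CLDN4 from -0.19 to -0.06. KRT7 stood at -2.99, CLDN1 at -3.13, CDH1 at 0.33 and GRHL2 at 0.50 after that step. With a trend on transcript length removed instead, CDH1 moved from 0.34 to 0.24, GRHL2 from 0.50 to 0.38 and KRT19 from -0.31 to -0.17. The part of base composition or transcript length in these differences, large or small, was otherwise not tested.

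The wider epithelial programme was read from 12 lists, whose members other than the 9 genes gave 53 kept genes. Of these, 6 were called lower in the V4 library, 1 higher and 46 neither, with a median log2 ratio of -0.00, the same as over all kept genes to that precision. The background shares above (7.10% lower, 5.51% higher) apply here too. Those lower included KRT81, CLDN9, CLDN23, CDH3 and SNAI1, and the higher one was DST, a linker of intermediate filaments to hemidesmosomes, at 16 counts against 35. DST was no longer called once a trend on transcript length was taken out, which left a log2 ratio of 0.63. The 2 other kept genes of its list were EVPL, the envoplakin gene, with 1040 and 1057 counts, and COL17A1, with 18 and 17.

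Keratins outside the 4 named ones were mostly scarce. Of 14 basal and stratified keratins with a row, 2 were kept. KRT10, a type I keratin of differentiating epidermis, had 1084 counts with V1 and 775 with V4, 1.42-fold lower (interval 1.29 to 1.56). KRT5, the type II keratin of basal cells, had 8 and 15 counts, with an interval that included 1. The 1 kept hair keratin, KRT81, had 79 and 42 counts, 1.91-fold lower with V4 (interval 1.30 to 2.84). Hair keratins are close copies of each other, and the labels do not state how reads common to them were counted. KRT80, a simple-type keratin below the filter, had 15 and 3 counts.

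Of the 7 kept claudins, 6 had a log2 ratio below 0 under each scaling tried, and CLDN11 had 82 and 83 counts. The median of the list was -0.33. Besides CLDN1, the called ones were CLDN9, at 27 counts against 11 (2.49-fold lower with V4, interval 1.19 to 5.56), and CLDN23, at 82 against 45 (1.85-fold, interval 1.27 to 2.72). With the GC trend removed the median of the claudins was -0.07, and 3 of 7 were still called lower, beside 494 of 8446 genes. CLDN1 is among them and was chosen on this comparison, so nothing is read from the count.

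Of the 13 kept genes of the other tight junction and polarity list, 0 were called in either direction, beside 7.10% lower and 5.51% higher over all kept genes, and their median was 0.07. The difference from the claudins was not tested. F11R, a junctional adhesion molecule gene and the one with the most counts, had 2937 and 3071 counts, a ratio of 1.03 (interval 0.980 to 1.09). CRB3, an apical polarity gene, had 369 and 283 counts (ratio 0.757, interval 0.646 to 0.886), and the scaffold gene MAGI3 had 181 and 242 (ratio 1.32, interval 1.08 to 1.61).

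Adherens junction genes had a median of 0.02 over 7 kept genes. CDH3, which encodes the P-cadherin of basal cells, was the only one called, at 993 counts with V1 and 666 with V4 (1.51-fold lower, interval 1.37 to 1.67). Over all kept genes, 7.10% were called lower and 5.51% higher. CDH3 lay at the threshold and was under it with the GC trend removed (-0.51). CDH1 and CDH3, 2 classical cadherins, thus stood on opposite sides of 1. MLLT4, the afadin gene, had 1597 and 1644 counts, with an interval that included 1. Of the nectin genes, PVRL2 had 128 and 104 counts and PVRL3 30 and 37, both with intervals that included 1.

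Desmosome genes anchor keratin filaments at the cell border. None of the 4 kept was called, beside 7.10% lower and 5.51% higher over all kept genes, and their median was 0.24. With so few genes, nothing is read from that count. DSP, the desmoplakin gene, had 972 and 1296 counts (ratio 1.32, interval 1.21 to 1.43), and the cadherin DSG2 had 4515 and 5143 (ratio 1.12, interval 1.08 to 1.17). PERP, with the most counts, had 6007 and 5577 counts (ratio 0.916, interval 0.883 to 0.95). PKP3, a plakophilin gene, had 89 and 113 counts. With a transcript length trend removed the median was 0.09. The gap junction gene GJA1, with 63 and 90 counts, was not called.

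**Figure D4:**
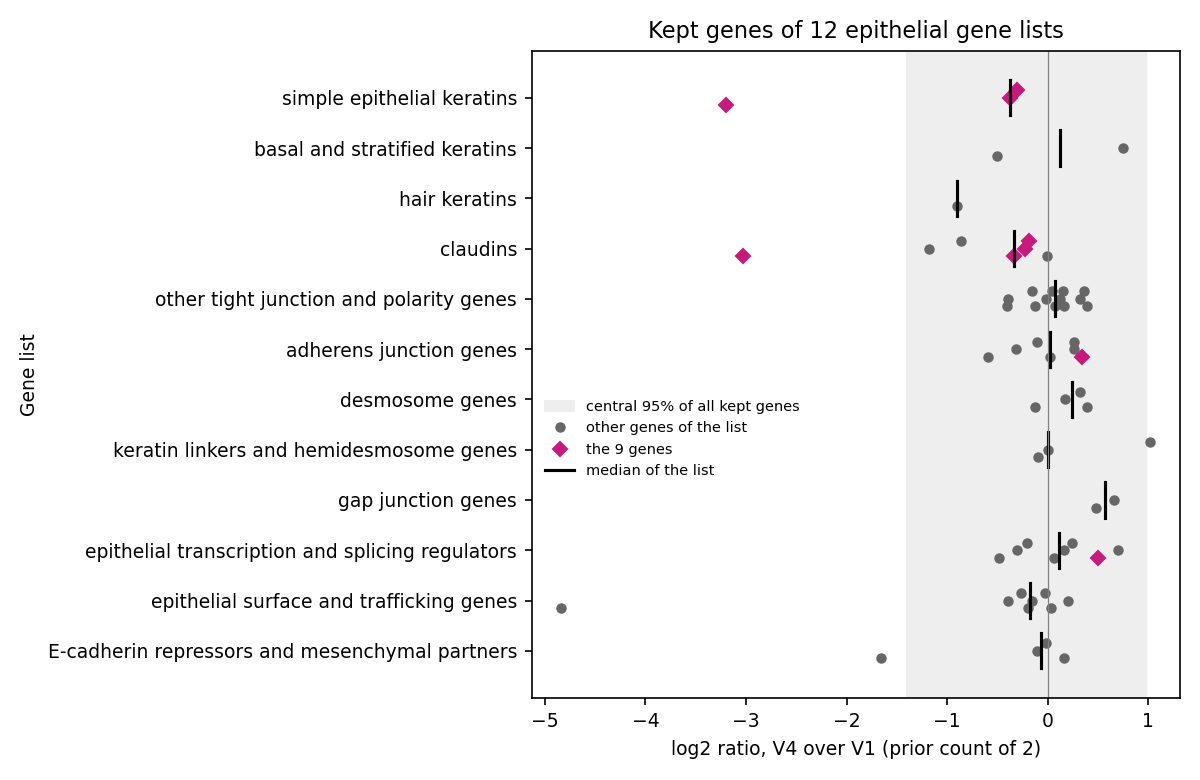
Log2 ratio of V4 over V1 (prior count of 2) for each kept gene of 12 epithelial gene lists, with diamonds for the 9 genes, circles for the other genes and a bar at each list's median. The grey band holds the central 95% of all kept genes, from -1.40 to 0.98, and KRT7, CLDN1 and SNAI1 are among the genes below it, with DST above it.

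Among the regulators of the epithelial state, GRHL2 was accompanied by 7 other kept genes, with a median log2 ratio of 0.06. None of these was called, beside 7.10% lower and 5.51% higher over all kept genes, so nothing is read from that count. FOXA1, a pioneer factor of luminal prostate cells, had 5861 and 6205 counts (ratio 1.04, interval 1.01 to 1.08). ELF3 had 15 and 26 counts, OVOL1 52 and 37, and KLF4 108 and 88, all with intervals that included 1. GRHL1 and GRHL3, the paralogs of GRHL2, were at 0 counts in both libraries, which by a limit of 3 counts, used here for a count of 0 in place of the interval, allows up to 0.324 CPM with V1 and 0.312 CPM with V4.

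Of 4 kept E-cadherin repressors and mesenchymal partners, SNAI1 was called lower with V4, at 51 counts against 15 (3.45-fold, interval 1.91 to 6.60). The shares called over all kept genes were 7.10% lower and 5.51% higher. SNAI2 had 15 and 14 counts and TWIST1 27 and 31, and CDH2, which encodes N-cadherin, had 18 and 18. The median of the list was -0.06. SNAI1 was thus lower in the library where CDH1 was higher, and a link between them was not tested.

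The 8 kept epithelial surface and trafficking genes had a median of -0.18. EPCAM, an epithelial adhesion molecule gene, had 2003 and 2001 counts, a ratio of 0.986 (interval 0.926 to 1.05). MAL2, with the most counts, had 4525 and 4701 counts (ratio 1.02, interval 0.984 to 1.07). The protease inhibitor gene SPINT2 had 2033 and 1571 counts (ratio 0.762, interval 0.713 to 0.815), and the protease gene PRSS8 had 373 and 314.

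The labelled identity was read from marker lists. Of the luminal prostate markers, HOXB13 had 621 counts with V1 and 536 with V4. KLK2 had 8 and 13 counts and TMPRSS2 1 and 2. Basal markers with a row numbered 4 of 7 and summed to 2.81 and 1.67 CPM. NGFR had 14 and 1 counts, KRT14 4 and 0, KRT5 8 and 15, and KRT15 was at 0 in both. The 4 leukocyte markers with a row, of 6 listed, summed to 1.19 CPM (V1) and 0.83 CPM (V4): PTPRC and CD3E were at 0 in both libraries, LYZ had 7 and 6 counts and CSF1R 4 and 2. The 3 endothelial markers with a row, of 5 listed, summed to 0.11 and 1.14 CPM. CDH5 was at 0 in both, VWF had 0 and 6 counts and KDR 1 and 5.

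Of the fibroblast markers, COL1A2 and COL3A1 were lower with V4, as KRT7 and CLDN1 were, while LUM was not. Of 8 listed, 5 had a row, and they summed to 166.5 CPM with V1 and 5.0 CPM with V4. COL1A2 had 976 and 4 counts, COL3A1 526 and 0, and PDGFRB 6 and 0, while LUM had 33 and 44 and THY1 was at 0 in both. In bulk RNA, fewer cells of a type and less RNA per cell cannot be told apart. Whether other cells were in the V1 library, with a part in the values of KRT7 and CLDN1, was not tested.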

How the data were processed

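Poly(A) RNA of 3 samples was sequenced as 150 bp single-end reads, per the labels' protocols. The table deposited by the authors gives raw read counts by gene symbol, with hg19 as the build in the submitters' processing notes. No aligner, counting program or strand setting is named in the labels. A column was used where its name matched 1 sample title. The column that names no transfection (columns not used: 1) entered no step, so ratios over the empty vector, although planned, were left out. The design text mentions technical replicates, and whether their reads were pooled in a column is not stated.

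Of 15512 rows, 22 had a date where the symbol should be (0.0504% and 0.0532% of V1 and V4 counts) and stayed in, unnamed. Counts of 21 repeated symbols were summed. Genes were kept from a mean of 1 CPM over the pair of libraries upward. Libraries were scaled by TMM (edgeR 4.0.16, R 4.3.3; factors 1.01 and 0.988). Printed folds are ratios of scaled counts with a 95% exact conditional binomial (Clopper-Pearson) interval from scipy 1.17.1. Log2 ratios add a prior count of 2. The labels name no molecular identifiers, and reads may be copies of 1 molecule, so intervals and floors cover counting error only. The procedure was also run on simulated counts that vary by counting error alone, with planted changes. That run holds no variation between cultures and cannot stand in for replicates.

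Length and GC content were those of the longest protein-coding transcript per gene in GENCODE v29 (GRCh38), found for 95.5% of kept genes. As that build is not hg19, only RefSeq promoter windows carry coordinates. Lowess curves (fraction 0.3, statsmodels 0.14.6) gave the trends. Figures used matplotlib 3.10.9. The 10 genes, the 12 gene lists and the 5 marker lists were chosen with earlier results of these data known. The genes named were the 10 and, of each list, up to 3 other kept genes farthest from a log2 ratio of 0 and the 1 with the most counts. KRT80, CDH2, EPCAM, GRHL1, GRHL3 and markers below the filter were named after their values were seen. Alternatives were other scalings (DESeq2 1.42.0 size factors, upper quartile, total counts), filters, thresholds and prior counts, thinning, and removal of either trend. Some genes that the naming rule takes are not reported here.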

Additional observations from a re-analysis of the deposited data

How the results depend on the processing

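The 2 genes called lower and the 0 called higher in the V4 library among the 9 stood under each of the 12 alternatives planned, which were 3 other scalings, 2 filters, 2 prior counts, 2 thresholds, thinning to the smaller total and 2 trends removed. CLDN7 dropped out at a mean CPM of at least 10, so 8 genes remained there. The median log2 ratio of the 9 genes, -0.31, was -0.068 with the GC trend removed and -0.18 with the transcript length trend removed. Of 89 single-gene values for the 9 genes under these alternatives, 83 stayed within the counting interval of the reported value, 6 did not, and 0 changed sign. KRT7 ranged from -3.26 to -2.99 and CLDN1 from -3.13 to -2.75. The same alternatives were applied after seeing the data to the other named genes: CDH3 was under the threshold after thinning (-0.58) as well as with the GC trend removed, and no called gene changed sign. No paired analysis was possible because each group had 1 sample. Depth limits CLDN7 most, and no setting stands in for replicate cultures.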
